A study of Mus musculus with 162 samples.

Results

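The 9 genes described here encode epithelial and neutrophil defence proteins, and they were chosen by name out of the 46078 genes listed for each library: the alarmins S100a8, S100a9 and S100a7a, the antimicrobial proteins Camp, Lcn2 and Slpi, and the beta-defensins Defb3, Defb4 and Defb14. All mice were adult male C57BL/6 animals that received 0.2 mM MC903 in ethanol, or ethanol alone, once a day, and MC903 (calcipotriol) is a vitamin D analogue that produces dermatitis resembling atopic dermatitis in mouse skin. RNA-seq counts came from cheek skin, from the trigeminal ganglion on the treated side and from thoracic spinal cord of mice treated on the back, so that spinal cord and skin libraries came from mice treated at different sites. Of 162 libraries, 144 were used, and the 18 wild-type Day_12 libraries were left out.

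Skin gave 61 libraries. Wild-type mice without injection were sampled on Day_1 (4 ethanol, 4 MC903), Day_2 (2 and 3), Day_5 (3 and 3) and Day_8 (6 and 5). Per the study, Day_1 was 6 hours after the first treatment. On Day_8 there were also wild-type mice injected with PBS (3 and 2) or with 250 µg of anti-Gr1 (4 and 4), an antibody used to deplete neutrophils and called aGr1 from here on, as well as uninjected TSLPR.KO (2 and 3) and BLT1.KO mice (3 and 3), and TSLPR.KO mice were sampled again on Day_12 (3 and 4). TSLPR is the receptor of the epithelial cytokine TSLP (gene Crlf2), and BLT1 is a receptor of the neutrophil attractant leukotriene B4 (gene Ltb4r1). The ganglion gave 56 libraries of the same groups except BLT1.KO, and spinal cord gave 27 libraries of wild-type mice on Day_8 without injection (5 and 4), with PBS (2 and 2) or with aGr1 (6 and 8). The labels do not say whether replicates came from separate litters or cages, so the p-values measure the spread between these libraries.

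Keratinocytes and neutrophils are the principal sources of these proteins in inflamed skin. S100a8 and S100a9 form calprotectin, which withholds zinc and manganese from microbes and acts as a danger signal through Tlr4, while Lcn2 withholds iron by binding bacterial siderophores. Cathelicidin and the defensins damage microbial membranes, Slpi inhibits neutrophil elastase, and the S100 genes lie side by side in the epidermal differentiation region whereas the defensins form a cluster of their own.

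In GRCm38 coordinates, S100a7a (ENSMUSG00000063767, 90654017 to 90658669, plus strand), S100a8 (ENSMUSG00000056054, 90668978 to 90670035, plus) and S100a9 (ENSMUSG00000056071, 90692632 to 90695721, minus) lie on chromosome 3. Defb14 (ENSMUSG00000046354, 19194357 to 19195212), Defb4 (ENSMUSG00000059230, 19198706 to 19201545) and Defb3 (ENSMUSG00000039775, 19293360 to 19295291) lie on chromosome 8, all on the plus strand. Lcn2 (ENSMUSG00000026822, 32384633 to 32388252) and Slpi (ENSMUSG00000017002, 164354070 to 164389095) are on the minus strand of chromosome 2, and Camp (ENSMUSG00000038357, 109847379 to 109849617) is on the minus strand of chromosome 9.

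Promoter sequences of 7 of the 9 genes were found in RefSeq (GRCm38.p6), and Defb4 and Defb14 had no entry. The 250 bases before the start were searched on both strands for TTGCNNAA (C/EBP), GGGA and CC with any 4 bases between them (NF-kB), TTCNNNGAA (STAT), TGANTCA (AP-1) and a direct repeat of AGNTCA with any 3 bases between the copies, as bound by the vitamin D receptor. The C/EBP letters were present in S100a9, Lcn2, Slpi and Defb3, 4 genes whose RNA rose in MC903-treated skin, and these windows are shown for that shared element. Of 32851 mouse promoters searched over the same length, 9.56% held the C/EBP letters, 17.6% the NF-kB letters, 7.02% the STAT letters, 6.75% the AP-1 letters and 0.0517% the vitamin D receptor repeat. S100a7a had an NF-kB and a STAT match (bases -204 to -195 and -169 to -161 from the start), with no overlap between them, and S100a8 and Camp had no match to any of the 5. The sequences are given 5′ to 3′ on the gene's strand, with the C/EBP match in capitals at -236 to -229 in S100a9, -216 to -209 in Lcn2, -241 to -234 in Slpi and -179 to -172 in Defb3. For Lcn2, where the annotation places exons of other transcripts in the window, 30 bases around the match are shown.
S100a9, chr3:90695722-90695971, minus strand: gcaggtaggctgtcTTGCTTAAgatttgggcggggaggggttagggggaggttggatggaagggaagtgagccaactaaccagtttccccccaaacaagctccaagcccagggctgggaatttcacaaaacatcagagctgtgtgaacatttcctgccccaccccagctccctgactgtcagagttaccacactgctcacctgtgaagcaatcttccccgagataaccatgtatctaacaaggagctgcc
Slpi, chr2:164356508-164356757, minus strand: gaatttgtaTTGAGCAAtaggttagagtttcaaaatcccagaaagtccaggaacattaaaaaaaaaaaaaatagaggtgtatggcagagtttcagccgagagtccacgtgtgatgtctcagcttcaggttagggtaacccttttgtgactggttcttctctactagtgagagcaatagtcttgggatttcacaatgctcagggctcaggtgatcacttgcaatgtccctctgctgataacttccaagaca
Defb3, chr8:19293111-19293360, plus strand: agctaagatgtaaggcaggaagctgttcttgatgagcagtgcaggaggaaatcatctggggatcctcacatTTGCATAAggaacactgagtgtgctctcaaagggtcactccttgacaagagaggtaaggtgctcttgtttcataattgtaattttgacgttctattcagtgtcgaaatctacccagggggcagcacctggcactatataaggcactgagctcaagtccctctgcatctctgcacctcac
Lcn2, chr2:32387937-32387966, minus strand: agcccttcctgTTGCTCAAccttgcacagt

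Each library held between 15931871 and 67342879 counts on genes. The unit of levels is cpm, which scales the counts of a gene to its library's total, and a level of 3 counts or fewer was taken as not detectable. Crlf2 stood at 0.07 to 0.28 cpm in Day_8 TSLPR.KO skin against 2.24 to 12.3 cpm in wild-type skin, while Ltb4r1 reads remained in BLT1.KO skin (2.33 to 15.2 cpm against 6.66 to 77.6 cpm). The summed cpm of 11 keratinocyte markers was 4593 to 50486 in skin, 2.9 to 395.8 in the ganglion and 2.6 to 18.2 in spinal cord. One MC903 skin library of Day_2, replicate 3, stood apart with 1586.5 cpm of sensory-neuron markers against 23.99 and 31.4 in the other MC903 libraries. Where a Day_2 fold change is given for a gene, it is given with and without this library. The Day_8 wild-type libraries without injection carried labels of 2 styles, treated as cohorts A and B.

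MC903 raised most of these genes in skin by Day_5, and the rise persisted on Day_8. The test was edgeR's quasi-likelihood test, with p-values adjusted by Benjamini-Hochberg over the whole table and a threshold of 0.05 in skin and cord. It called 7 of 9 genes on Day_5, all higher, where 14.9% of 24226 genes were called in either direction and 8.15% higher. On Day_8 the same number, 7 of 9, rose in wild-type mice without injection, against 23.4% of 26175 genes called and 12.2% called higher. The genes called on Day_5 and on Day_8 were S100a8, S100a9, Lcn2, Slpi, Defb3, Defb4 and Defb14, whereas S100a7a and Camp were not called on either day. The median log2 fold change over the 9 genes was 5.51 on Day_5 and 3.99 on Day_8 (3.24 and 3.64 with Defb3 set at its lower bound), and the median over all genes was -0.03 on both days.

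On Day_1 and Day_2 few of these genes passed the test. On Day_1, 8 of the 9 genes passed the minimum of 10 counts in total and only Defb4 was called, and it was lower, where 13% of 24749 genes were called. On Day_2 edgeR called 0 of the 8 genes that passed, 4 of them having an unadjusted p under 0.05, and it called 0% of 24580 genes. DESeq2 called 2 of them on Day_2, Slpi and Defb14, and the share of all genes that it called is not given here. EdgeR with same-numbered replicates as blocks also called some, as given with the alternative fits. The MC903 libraries lay wholly above the ethanol libraries for 4 genes on Day_2, where 10.6% of genes did so.

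**Figure D1:**
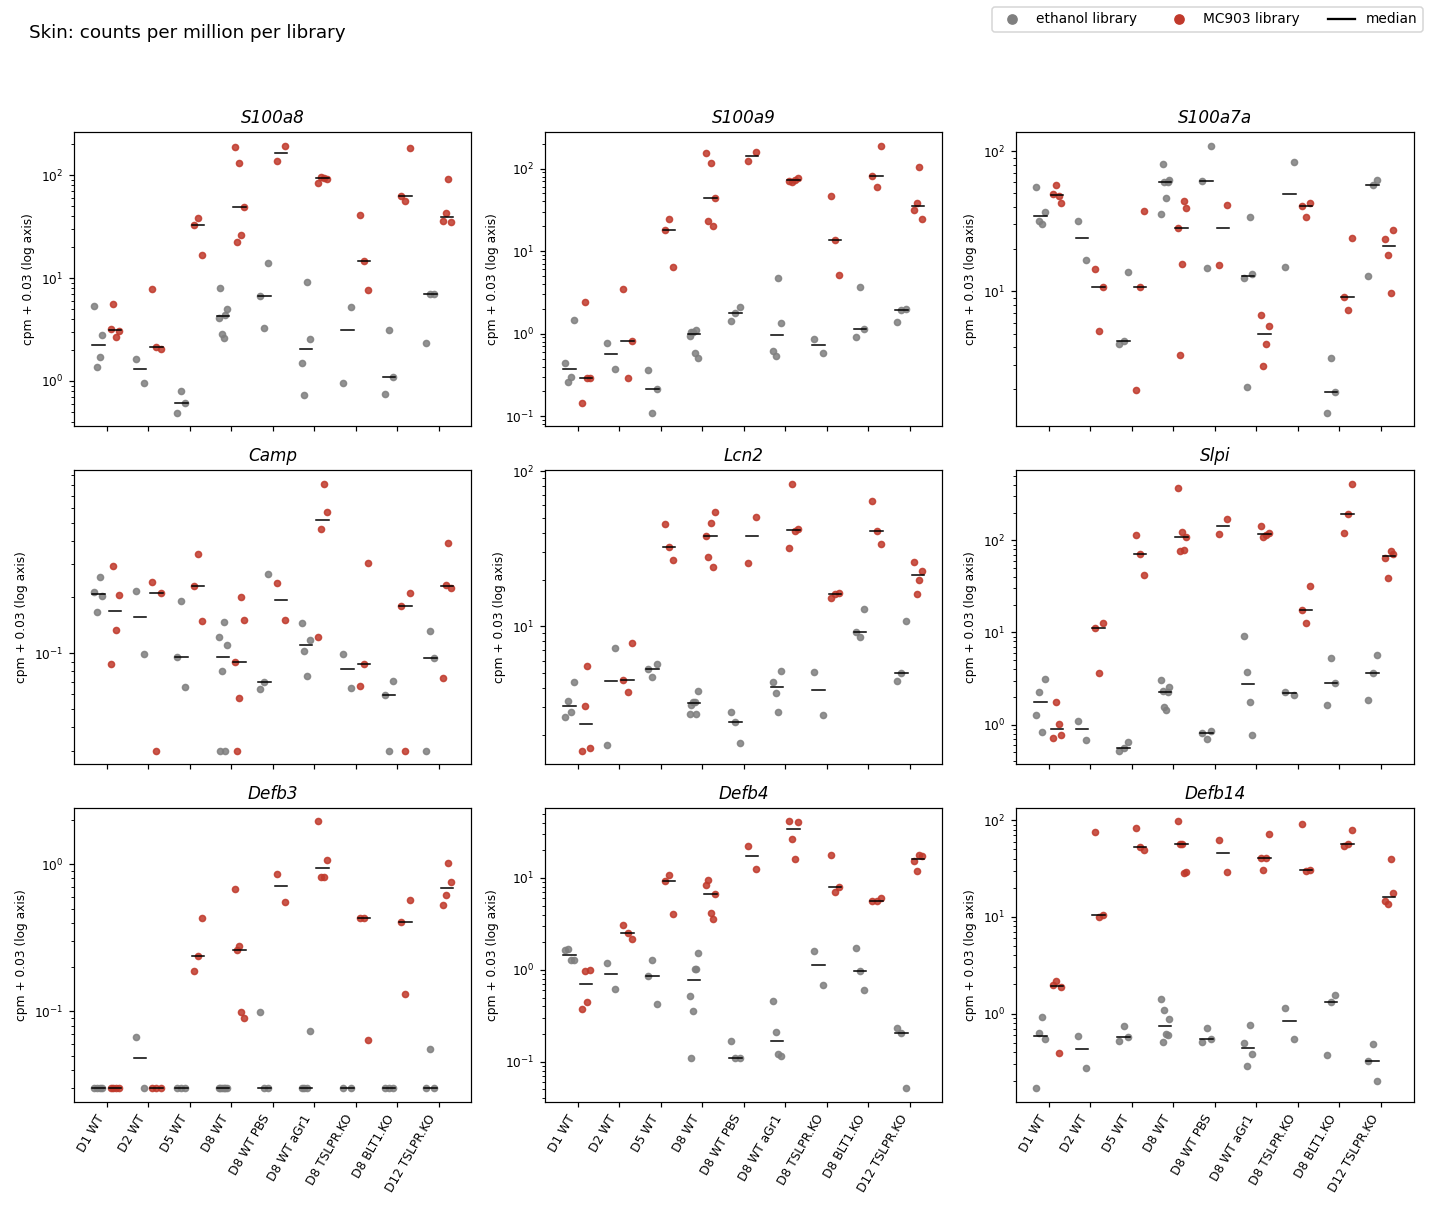
Level of each of the 9 genes in every skin library, in cpm plus 0.03 on a log axis, by day, genotype and injection, with ethanol libraries in grey, MC903 libraries in red and a line at each group's median. From Day_5 on, the MC903 points of S100a8, S100a9, Slpi, Lcn2, Defb4 and Defb14 lie above every ethanol point of their group, S100a7a shows no such separation in wild-type mice, and Camp stays under 1 cpm throughout.

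S100a8 stood at 1.32, 1.67, 2.74 and 5.34 cpm in the Day_1 ethanol libraries and at 2.65, 3.02, 3.16 and 5.55 cpm after MC903, so the groups overlapped. On Day_2 all MC903 libraries lay above ethanol, with 49 to 221 counts against at most 43, and the change was not called by edgeR. On Day_5 the ethanol libraries held 0.460, 0.578 and 0.763 cpm and the MC903 libraries 16.7, 32.8 and 38.2 cpm. Every MC903 library of Day_5 was above every ethanol library, and the log2 fold change was 5.51 ± 0.41 (SE; edgeR, adjusted p = 2.5e-04). On Day_8 the ethanol libraries ran from 2.56 cpm over a median of 4.21 to 8.0 cpm, and the MC903 libraries held 22.3, 26.1, 49.7, 132.2 and 188 cpm. The MC903 libraries again lay wholly above, with a wide spread among them, and the log2 fold change was 3.99 ± 0.52 (edgeR, adjusted p = 1.4e-04).

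S100a9, the partner of S100a8 in calprotectin, started lower and rose further. On Day_5 its ethanol libraries held 0.0803, 0.181 and 0.328 cpm and its MC903 libraries 6.45, 18.1 and 24.1 cpm, with a log2 fold change of 6.21 ± 0.66 (edgeR, adjusted p = 0.0012). The Day_8 ethanol libraries ran from 0.483 cpm over a median of 0.963 to 1.08 cpm, and the MC903 libraries held 20.3, 23.03, 44.4, 116.2 and 153 cpm. No MC903 library fell within the ethanol range on either day, and the Day_8 log2 fold change was 6.18 ± 0.51 (edgeR, adjusted p = 2.9e-06). On Day_1 and Day_2 the groups overlapped, at 0.115 to 2.36 cpm on Day_1 and 0.258 to 3.43 cpm on Day_2. The Day_2 log2 fold change was 1.36 with the library that stands apart and -0.0073 without it (edgeR, adjusted p = 0.91 and 1.0).

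The ratio of S100a8 to S100a9 counts within a library differed by treatment in some skin groups. In Day_8 wild-type skin it was 2.80 to 10.4 in the 6 ethanol libraries, with a median of 4.55, and 0.966 to 1.29 in the 5 MC903 libraries, with a median of 1.14. The ranges did not overlap. Pooled over all groups, ethanol skin held 2.98 S100a8 counts for each S100a9 count and MC903 skin from Day_5 on held 1.09. The ratios were likewise apart with PBS (1.86 to 6.83 after ethanol, 1.13 to 1.21 after MC903) and in TSLPR.KO mice on Day_12 (1.67 to 3.71 and 0.864 to 1.45). They overlapped between treatments on Day_5 (1.4 to 3.2 and 1.58 to 2.59), with aGr1 (1.36 to 2.53 and 1.18 to 1.41), in TSLPR.KO mice on Day_8 (1.13 to 9.44 and 0.872 to 1.51) and in BLT1.KO mice (0.800 to 0.963 and 0.792 to 0.969). Per kilobase of exon, the mean Day_8 level rose from 6.44 to 120.6 cpm for S100a8 and from 1.62 to 136.9 cpm for S100a9.

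S100a7a, the mouse relative of human psoriasin and a chemoattractant, behaved unlike its neighbours. The Day_8 ethanol libraries ran from 35.6 cpm over a median of 59.9 to 81.1 cpm, which was the highest ethanol level per kilobase among the 9 genes (a mean of 41.8 cpm per kb). The MC903 libraries held 3.51, 15.5, 28.2, 39.0 and 43.9 cpm. The MC903 libraries lay mostly below but 2 of them reached into the ethanol range, and the log2 fold change of -1.22 ± 0.45 was not called (edgeR, adjusted p = 0.067). On Day_5 the ethanol libraries held 4.20, 4.38 and 13.8 cpm and the MC903 libraries 1.95, 10.7 and 37.3 cpm, which overlapped, and on Day_2 MC903 libraries held 5.17, 10.6 and 14.4 cpm against 16.6 and 31.7 cpm, with a log2 fold change of -1.32 ± 0.47 that was not called (edgeR, adjusted p = 0.90; without the library that stands apart -1.59, adjusted p = 0.38). Ethanol skin itself varied widely in this gene, from 1.34 cpm in BLT1.KO to 109 cpm in a PBS-injected mouse.

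Lcn2 rose evenly among libraries. The Day_5 ethanol libraries held 4.70, 5.29 and 5.67 cpm and the MC903 libraries 26.9, 32.2 and 45.8 cpm, a log2 fold change of 2.60 ± 0.28 (edgeR, adjusted p = 0.0013). On Day_8 the ethanol libraries ran from 2.67 cpm over a median of 3.15 to 3.78 cpm, and the MC903 libraries held 24.1, 28.04, 38.1, 46.5 and 54.6 cpm. The groups were apart on both days, and the Day_8 log2 fold change of 3.64 ± 0.22 (edgeR, adjusted p = 1.6e-07) had the smallest SE among the called genes. On Day_1 the range was 1.55 to 5.50 cpm over both groups, which overlapped.

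Slpi, the secretory leukocyte protease inhibitor, lay wholly above ethanol from Day_2 on in uninjected wild-type mice. The Day_2 ethanol libraries held 0.657 and 1.07 cpm and the MC903 libraries 3.62, 11.3 and 12.5 cpm, wholly above, with a log2 fold change of 3.34 ± 0.69 that edgeR did not call (adjusted p = 0.44) and DESeq2 did (adjusted p = 1.4e-04). Without the library that stands apart, the Slpi change on Day_2 was 3.23 (edgeR, adjusted p = 0.24). By Day_5 the ethanol libraries held 0.4927, 0.522 and 0.614 cpm and the MC903 libraries 41.8, 71.4 and 114.3 cpm. That difference, 7.0 ± 0.47 on the log2 scale, was the largest among these genes on Day_5 apart from Defb3, for which a bound is given (edgeR, adjusted p = 1.4e-04). On Day_8 the ethanol libraries ran from 1.40 cpm over a median of 2.25 to 3.0 cpm and the MC903 libraries held 77.4, 77.9, 107, 123.8 and 365 cpm, with a log2 fold change of 6.02 ± 0.42 (edgeR, adjusted p = 7.4e-07). Slpi on Day_1 overlapped between groups, at 0.688 to 3.13 cpm.

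Camp, the gene of cathelicidin, was close to the limit of detection in skin. It had 0 to 16 counts per library, never above 0.783 cpm, and more than 3 counts in 26 of 61 libraries. On Day_8 the ethanol libraries ran from 0 over a median of 0.0655 to 0.116 cpm and the MC903 libraries held 0, 0.0277, 0.0592, 0.122 and 0.171 cpm. These overlapped, and a difference was not detectable at this depth (edgeR, adjusted p = 0.86).

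Among the defensins, Defb14, the mouse ortholog of human beta-defensin 3, lay wholly above ethanol from Day_2 on in uninjected wild-type mice. On Day_1 its ethanol libraries held 0.138, 0.521, 0.593 and 0.902 cpm and its MC903 libraries 0.364, 1.84, 1.95 and 2.15 cpm, so that 3 of 4 MC903 libraries were above all ethanol libraries and the log2 fold change was 1.47 ± 0.53 (edgeR, adjusted p = 0.096). On Day_2 the ethanol libraries held 0.242 and 0.554 cpm and the MC903 libraries 9.99, 10.4 and 75.2 cpm, the last being the library that stands apart. The log2 fold change was 6.20 ± 1.23 with it (edgeR, adjusted p = 0.42) and 4.68 ± 0.46 without it, when Defb14 alone of the 9 was called (edgeR, adjusted p = 0.026). The Day_5 values were 0.4927, 0.542 and 0.723 cpm in ethanol and 48.9, 53.3 and 82.9 cpm in MC903. The Day_8 ethanol libraries ran from 0.483 cpm over a median of 0.720 to 1.38 cpm and the MC903 libraries held 28.6, 28.9, 56.2, 56.3 and 97.1 cpm. All MC903 libraries of both days lay above ethanol, by 6.61 ± 0.31 (edgeR, adjusted p = 2.7e-05) and 5.87 ± 0.27 (edgeR, adjusted p = 2.1e-08) on the log2 scale. Per kilobase of exon, Defb14 had the highest mean level of the 9 genes in Day_8 MC903 skin, at 261.9 cpm per kb.

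Defb4, the mouse counterpart of human beta-defensin 2, fell before it rose. On Day_1 the ethanol libraries held 1.26, 1.26, 1.61 and 1.64 cpm and the MC903 libraries 0.344, 0.415, 0.942 and 0.962 cpm, wholly below, as were 5.35% of genes. The fold change of -1.14 ± 0.33 on the log2 scale was just past the threshold (edgeR, adjusted p = 0.047) and lost it whichever of the 8 libraries was left out. On Day_2 ethanol held 0.588 and 1.14 cpm and MC903 2.12, 2.50 and 3.07 cpm, and on Day_5 ethanol held 0.398, 0.821 and 1.24 cpm and MC903 4.02, 9.17 and 10.7 cpm. The MC903 libraries lay above on both days, and the change was called on Day_5 only, at 3.24 ± 0.46 (edgeR, adjusted p = 0.0042), while that of Day_2 was 1.52 (edgeR, adjusted p = 0.90), or 1.43 without the library that stands apart (adjusted p = 0.46). On Day_8 the ethanol libraries ran from 0.0805 cpm over a median of 0.738 to 1.5 cpm and the MC903 libraries held 3.56, 4.08, 6.62, 8.26 and 9.43 cpm, for a log2 fold change of 3.43 ± 0.50 (edgeR, adjusted p = 3.4e-04).

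Defb3, a further epithelial beta-defensin, was not detectable in ethanol skin, with at most 2 counts in any ethanol library. On Day_5 it held 0.159, 0.207 and 0.398 cpm after MC903 and on Day_8 0.0608, 0.0684, 0.230, 0.250 and 0.651 cpm, with 0 in every ethanol library of those groups. Set against a floor of 3 counts per library, Defb3 was at least 2.33-fold higher on Day_5 and at least 2.96-fold higher on Day_8 (edgeR, adjusted p = 0.038 and 0.0062). The Day_5 call was lost in 5 of 6 fits that left out a library.

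Within Day_8 wild-type skin, both cohorts gave the same direction for the called genes, with different sizes for some. Cohort A alone gave a log2 fold change of 4.50 for S100a8, 6.61 for S100a9, 6.39 for Slpi, 3.62 for Lcn2 and 6.17 for Defb14, and cohort B alone gave 3.30, 5.56, 5.53, 3.64 and 5.44 in the same order. Defb4 was 4.60 in cohort A and 2.17 in cohort B, and S100a7a was -1.93 and -0.41, called in neither (edgeR, adjusted p = 0.080 and 0.15). Defb3 was tested in cohort A only.

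Neutrophil markers moved in the same skin libraries, and in bulk tissue fewer cells of a type and less RNA per cell cannot be told apart. The summed level of 14 neutrophil markers was 63.7 to 145.5 cpm in Day_8 ethanol skin and 94.3 to 349.9 cpm in MC903 skin, and 8 of 14 markers were called higher and 1 lower. Of all genes in this comparison, 23.4% were called and 12.2% were called higher. Retnlg rose from 0.05 to 0.52 cpm in ethanol to 2.05 to 7.71 cpm, and Mmp8 rose from 0.03 to 0.15 cpm to 2.36 to 6.24 cpm. The granule gene Mpo went the other way, from 0.617 to 2.47 cpm in ethanol to 0 to 0.342 cpm. The granule marker Ngp and the surface marker Ly6g stayed at or under 0.21 and 0.33 cpm in both groups. Il1r2 and Mmp9, which other cells also express, made up much of the sum, at 51.2 to 115.1 and 3.58 to 18.9 cpm after ethanol and 43.3 to 76.04 and 19.2 to 175 cpm after MC903. Of 11 keratinocyte markers, 5 were called higher and 5 lower, and among them Krt6a, a stress keratin, rose by 4.43 ± 0.20 on the log2 scale (edgeR, adjusted p = 2.0e-08). The part of either cell type in the changes of the 9 genes was not tested.

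The genotype and injection groups of Day_8 repeated the rise of most of the 9 genes. Called genes numbered 7 of 9 in PBS-injected mice (3.99% of 24416 genes called, 3.26% higher), 9 of 9 in aGr1-injected mice (32.6% of 25287, 15.1% higher), 5 of 9 in TSLPR.KO mice (2.45% of 24292, 1.31% higher) and 8 of 9 in BLT1.KO mice (28.6% of 25771, 14.1% higher). In TSLPR.KO mice on Day_12, 6 of 9 were called (10% of 25432, 5.41% higher). All these calls were higher in MC903 skin except S100a7a in aGr1-injected mice. The interaction tests below, each asking whether the MC903 effect of a group differed from that in uninjected wild-type mice, share the uninjected wild-type Day_8 libraries.

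In aGr1-injected skin S100a8 held 0.695, 1.47, 2.52 and 9.13 cpm after ethanol and 83.97, 93.0, 93.2 and 97.2 cpm after MC903, and S100a9 held 0.512, 0.579, 1.30 and 4.70 cpm against 68.9, 70.99, 72.5 and 77.02 cpm. All MC903 libraries lay far above, and they were more alike than in the uninjected group. The log2 fold changes were 4.51 ± 0.58 and 5.12 ± 0.55 (edgeR, adjusted p = 5.5e-04 and 2.0e-04), and neither was called as different from uninjected mice. The neutrophil marker sum in these libraries was 190.8 to 281.0 cpm after MC903 and 50.8 to 242.6 cpm after ethanol, and Ly6g had at most 1 count in any of them. Mmp9 held 97.4 to 150.8 cpm of the sum after MC903, Il1r2 held 32.6 to 63.2 cpm of it after ethanol, and 1 ethanol library had 185.3 cpm of Ltf. Against uninjected mice, Ngp after MC903 lay wholly above, at 0.503 to 3.18 against 0 to 0.205 cpm. So did Mmp8, at 6.96 to 9.27 against 2.36 to 6.24 cpm. Trem1 (1.32 to 1.74 against 1.88 to 14.7 cpm) and Il1r2 lay wholly below, and the other markers overlapped.

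Defb4 had a larger MC903 effect in aGr1-injected than in uninjected mice. It held 0.0870, 0.0904, 0.183 and 0.425 cpm after ethanol and 15.9, 26.5, 40.99 and 41.1 cpm after MC903. No uninjected MC903 library reached that level, and the interaction was 3.47 ± 0.81 on the log2 scale (edgeR, adjusted p = 0.021, 1 of 9 genes where 4.56% of 27824 genes were called). PBS-injected mice, however, held 0.0790, 0.0794 and 0.138 cpm after ethanol and 12.6 and 22.4 cpm after MC903. Against that group the interaction of Defb4 was -0.48 ± 0.78 (edgeR, adjusted p = 0.87), so no difference was called between the 2 injected groups.

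Camp counts in TSLPR.KO skin on Day_12 summed to 7 after ethanol and 36 after MC903. In BLT1.KO skin they summed to 4 and 19, and in uninjected wild-type Day_8 skin to 12 and 12. EdgeR called Camp in aGr1-injected skin only, at 0.0452, 0.0731, 0.0870 and 0.116 cpm after ethanol and 0.0914, 0.435, 0.545 and 0.783 cpm after MC903. 3 of 4 MC903 libraries lay above ethanol, at no more than 16 counts, and the log2 fold change of 2.08 ± 0.67 (edgeR, adjusted p = 0.040) was lost in 7 of 8 fits that left out a library; the interaction was 1.76 and not called. S100a7a held 2.05, 12.4, 13.2 and 33.8 cpm after ethanol and 2.92, 4.21, 5.60 and 6.81 cpm after MC903, which overlapped through 1 low ethanol library. Its log2 fold change of -1.90 ± 0.59 (edgeR, adjusted p = 0.034) was likewise lost in 7 of 8 such fits, and scaling by library totals alone gave -1.65 (edgeR, adjusted p = 0.056). In this group library totals in place of TMM moved the median of all genes to 0.34 from -0.02.

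In PBS-injected skin the values after MC903 were 138 and 194 cpm for S100a8, 122.1 and 160.1 cpm for S100a9, 25.5 and 50.5 cpm for Lcn2, 115.9 and 171 cpm for Slpi and 29.5 and 62.4 cpm for Defb14. The ethanol libraries reached at most 14.03, 2.05, 2.75, 0.830 and 0.675 cpm in the same order. None of these 5 genes overlapped between groups, and the MC903 libraries of 20.1% of genes lay wholly above ethanol. The log2 fold changes were 4.42 ± 0.58, 6.39 ± 0.27, 4.09 ± 0.37, 7.58 ± 0.29 and 6.38 ± 0.40 (edgeR, adjusted p of 5.9e-04 to 0.013). Leaving out ethanol replicate 1 left 4 of 9 genes called, with S100a8, Lcn2 and Defb3 lost.

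TSLPR.KO skin on Day_8 had the lowest MC903 levels of Slpi and Lcn2 among the Day_8 groups. Slpi held 2.08 and 2.21 cpm after ethanol and 12.7, 17.7 and 31.6 cpm after MC903, below every MC903 library of uninjected wild-type mice. Lcn2 held 2.63 and 5.01 cpm and then 15.1, 16.1 and 16.4 cpm, again below every wild-type MC903 library. Both genes still rose within TSLPR.KO skin, by 3.28 ± 0.42 and 2.08 ± 0.31 on the log2 scale (edgeR, adjusted p = 0.0044 and 0.0090). The difference in effect from wild-type was -2.71 ± 0.67 for Slpi and -1.52 ± 0.37 for Lcn2, which edgeR did not call (adjusted p = 0.13 and 0.12) and DESeq2 did (adjusted p = 0.0043 and 0.013). Over the 9 genes edgeR called 0 of these differences, with 2 at an unadjusted p under 0.05, and 0.177% of 27120 genes were called.

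The alarmins were variable in TSLPR.KO skin. S100a8 held 0.933 and 5.23 cpm after ethanol and 7.70, 14.5 and 40.6 cpm after MC903, a log2 fold change of 2.73 ± 0.80 that was not called (edgeR, adjusted p = 0.14), and S100a9 held 0.555 and 0.830 cpm and 5.08, 13.7 and 46.6 cpm, a fold change of 4.96 ± 0.90 (edgeR, adjusted p = 0.021) whose call was lost in 3 of 5 fits that left out a library. The defensins rose: Defb14 went from 0.520 and 1.11 cpm to 30.04, 30.4 and 91.7 cpm (5.96 ± 0.63 on the log2 scale; edgeR, adjusted p = 0.0018), and Defb4 from 0.659 and 1.56 cpm to 6.98, 7.94 and 17.7 cpm (3.30 ± 0.52; edgeR, adjusted p = 0.011). All 4 genes were higher in every MC903 library than in the ethanol libraries, as were 15.3% of genes. Without MC903 replicate 1, only 2 of 9 genes were called. On Day_12 TSLPR.KO mice held 35.1, 36.2, 42.96 and 91.4 cpm of S100a8 and 11.8, 15.1, 17.3 and 17.95 cpm of Defb4 after MC903, against 2.29 to 7.05 cpm and 0.0213 to 0.202 cpm after ethanol, and both were called (3.03 ± 0.48 and 6.69 ± 0.45; edgeR, adjusted p = 0.0054 and 1.2e-04). Lcn2 on Day_12 held 4.41, 4.97 and 10.7 cpm after ethanol and 16.1, 19.8, 22.6 and 25.9 cpm after MC903, wholly above, and its change of 1.38 ± 0.40 was not called by edgeR (adjusted p = 0.060) and was by DESeq2 (adjusted p = 0.0062).

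BLT1.KO skin differed in S100a7a. This gene held 1.34, 1.88 and 3.32 cpm after ethanol, below all but 1 of the ethanol libraries of the other Day_8 groups, and 7.34, 9.11 and 23.95 cpm after MC903. Every MC903 library was higher, by 2.61 ± 0.52 on the log2 scale (edgeR, adjusted p = 0.0059), and the effect differed from that in wild-type mice by 3.88 ± 0.80 (edgeR, adjusted p = 0.0081). Lcn2 held 8.45, 9.12 and 12.9 cpm after ethanol and 33.7, 40.9 and 63.7 cpm after MC903. It started higher than in the 6 wild-type ethanol libraries, and its effect was smaller, the difference being -1.46 ± 0.36 on the log2 scale (edgeR, adjusted p = 0.020), with an adjusted p of 0.11 when cohort B alone served as the reference and the call lost in 3 of 17 fits that left out a library. These were 2 of 9 genes called where 6.95% of 27679 genes were. S100a8 rose from 0.713, 1.06 and 3.10 cpm to 56.01, 63.5 and 183 cpm in BLT1.KO skin (5.96 ± 0.71; edgeR, adjusted p = 4.1e-04), and its larger effect of 2.0 ± 0.90 was not called as a difference (edgeR, adjusted p = 0.20).

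Defb3 after MC903 held 0.525 and 0.826 cpm in PBS-injected, 0.783, 0.791, 1.04 and 1.92 cpm in aGr1-injected, 0.0344, 0.402 and 0.404 cpm in TSLPR.KO and 0.102, 0.374 and 0.542 cpm in BLT1.KO skin. The ratio to ethanol, over pooled counts, was 26.2 (95% counting interval 6.62 to 226) with PBS and 110.9 (19.5 to 4424) with aGr1, each against no more than 2 ethanol counts in a library, and the PBS call was lost in 4 of 5 fits that left out a library. In TSLPR.KO and BLT1.KO skin, with 0 ethanol counts, it was at least 2.70-fold and at least 6.13-fold higher, and the TSLPR.KO change was not called (edgeR, adjusted p = 0.21).

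Other genes of the same pathways were read from lists, whose counts in Day_8 wild-type skin stand beside the 23.4% of all genes called and the 12.2% called higher there. All these lists, inducers included, were chosen with earlier results of these data known, so their counts are descriptions and not independent tests. Of 25 other antimicrobial genes, 23 were tested in Day_8 wild-type skin and 11 were higher and 3 lower, with a median log2 fold change of 1.87 (1.32 with 1 gene at its bound) against -0.03 over all genes. The acute-phase gene Saa3 rose by 6.44 ± 0.36, and the beta-defensin Defb8 fell from 9.21 to 73.5 cpm in ethanol to 0.11 to 1.61 cpm, a log2 fold change of -5.68 ± 0.48 (edgeR, adjusted p = 4.0e-06), against the direction of Defb4 and Defb14. Wfdc12, a protease inhibitor of the Slpi family, rose by 6.55 ± 0.38 on Day_8 and fell on Day_5 (-1.90 ± 0.51; edgeR, adjusted p = 0.042), and its ethanol levels were 192 to 479 cpm on Day_5 and 0.0872 to 1.16 cpm on Day_8. Of 12 other S100 genes tested, 2 were higher and 3 lower, S100a11 rising by 1.48 ± 0.11 and S100a1 falling, with a log2 fold change of -0.97 ± 0.14.

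Of 10 genes listed as receptors of these proteins, 5 were higher and 1 lower on Day_8. Among them were the formyl peptide receptors Fpr1 (5.09 ± 0.55) and Fpr2 (3.61 ± 0.78), and Fpr1 was also counted among the neutrophil markers. Of 21 tested inducers, cytokines and transcription factors known to raise these genes, 14 were higher and 0 lower, with a median of 1.19. Il1f8, which encodes IL-36 beta, rose by 3.06 ± 0.16, Il1f9, which encodes IL-36 gamma, by 2.54 ± 0.21, and Stat3 by 1.19 ± 0.11 (edgeR, adjusted p of 4.6e-08 to 1.1e-05). The type 2 cytokines Il4 and Il13 rose by 2.92 ± 0.50 and 2.99 ± 0.91 (edgeR, adjusted p = 0.0011 and 0.031). The inducers called higher numbered 10 on Day_5, 7 with PBS, 13 with aGr1, 5 in TSLPR.KO and 13 in BLT1.KO skin, where 8.15%, 3.26%, 15.1%, 1.31% and 14.1% of all genes were called higher in the same order.

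Over the 18 skin group means, S100a8 and S100a9 followed each other (Pearson's r = 0.98 on log2 cpm), S100a7a had an r of -0.42 to -0.03 with the other 6 genes compared, and the remaining pairs had 0.84 to 0.96. These are descriptions over means that share treatment and day. Among 17563 genes, the patterns most like S100a8 were Lce3c and Myd88 (r = 0.98 and 0.97), like S100a9 the small proline-rich genes Sprr2i and Sprr2d (0.98), and like Slpi the late cornified envelope genes Lce3e and Lce3f (0.98). S100a7a was most like Crnn and Padi1 (0.97 and 0.96), genes of the cornified layer. Camp and Defb3, under a mean of 1 cpm, were not compared.

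In spinal cord of uninjected mice Lcn2 rose after MC903 and S100a8 and S100a9 did not pass the test. Lcn2 was the 1 gene called of 6 that passed the count minimum, where 12.2% of 25585 genes were called. It held 2.005, 2.46, 3.04, 4.08 and 6.21 cpm after ethanol and 9.74, 10.7, 15.6 and 18.03 cpm after MC903. All 4 MC903 libraries were above all 5 ethanol libraries, and the log2 fold change was 1.93 ± 0.30 (edgeR, adjusted p = 7.8e-04).

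S100a8 in the same cord libraries held 1.64, 2.83, 2.98, 5.03 and 12.3 cpm after ethanol and 2.38, 3.21, 3.28 and 16.2 cpm after MC903, and S100a9 held 3.04, 3.32, 3.51, 7.21 and 12.4 cpm and 1.27, 2.23, 4.82 and 13.8 cpm. The groups overlapped throughout, with 1 high library in each. The log2 fold changes were 0.35 ± 0.60 and -0.09 ± 0.57 (edgeR, adjusted p = 0.78 and 0.95), and leaving out 1 library moved them from -0.72 to 1.0 and from -1.07 to 0.36.

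**Figure D2:**
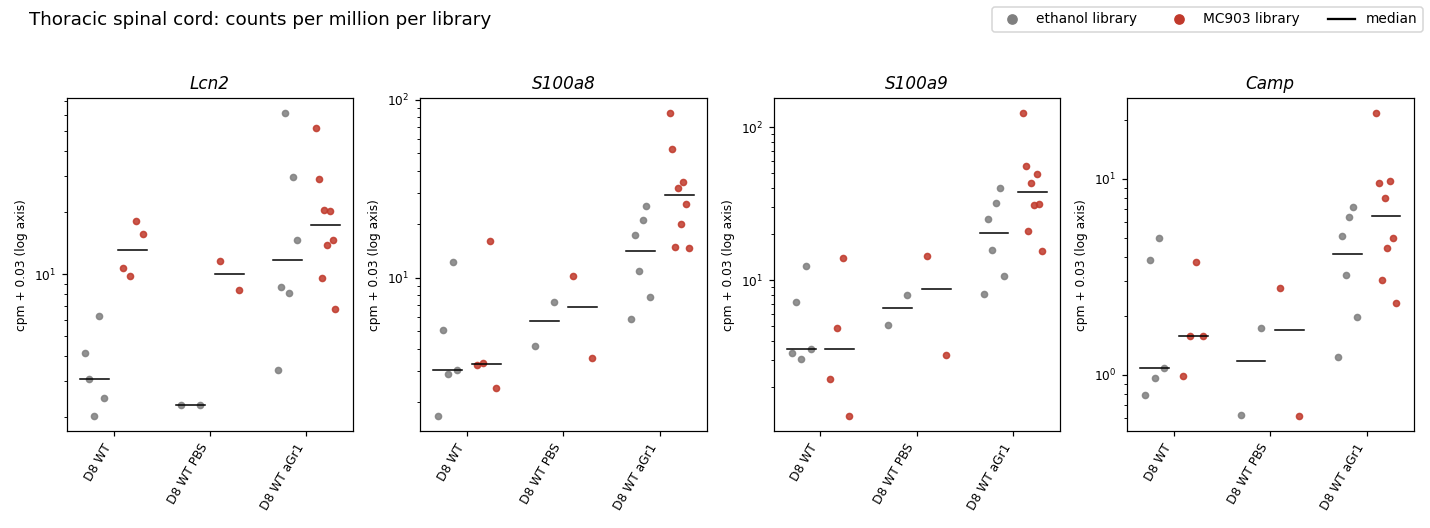
Levels of Lcn2, S100a8, S100a9 and Camp in every spinal cord library, in cpm on a log axis, for uninjected, PBS-injected and aGr1-injected wild-type mice on Day_8, with ethanol in grey, MC903 in red and a line at each median. Lcn2 separates by treatment without injection and with PBS, at 2.005 to 6.21 against 9.74 to 18.03 cpm in uninjected mice, while S100a8, S100a9 and Camp overlap.

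With PBS, cord Lcn2 held 2.26 and 2.26 cpm after ethanol and 8.35 and 11.5 cpm after MC903. Both MC903 libraries were higher, by 2.10 ± 0.22 on the log2 scale, close to the size in uninjected mice. EdgeR called 0 of 6 genes there (adjusted p = 0.13 for Lcn2, with 1 of 6 genes at an unadjusted p under 0.05) and 0% of 24573 genes. DESeq2 called Lcn2 (adjusted p = 3.0e-09), and the share of all genes that it called is not given here.

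With aGr1, the cord median of Lcn2 was higher than without injection after either treatment, over overlapping ranges, and this difference in level was not tested. Lcn2 no longer separated by treatment. Lcn2 ran from 3.37 cpm over a median of 11.6 to 60.8 cpm in 6 ethanol libraries and from 6.75 cpm over a median of 17.4 to 51.8 cpm in 8 MC903 libraries. The groups overlapped widely, and the log2 fold change was 0.00 ± 0.50 (edgeR, adjusted p = 1.0), or 0.69 ± 0.46 without the highest ethanol library (adjusted p = 0.42). The difference of this effect from uninjected mice, which again share their libraries with other comparisons, was -1.97 ± 0.74 and was not called (edgeR, adjusted p = 0.24, with 0 of 6 genes called, 1 at an unadjusted p under 0.05, 0 by DESeq2 and 0.532% of 28747 genes called).

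S100a8 with aGr1 ran from 5.84 cpm over a median of 14.1 to 25.4 cpm after ethanol and from 14.6 cpm over a median of 29.02 to 83.9 cpm after MC903. It was the 1 gene of 6 called, where 11.3% of 27649 genes were, with a log2 fold change of 1.25 ± 0.39 (edgeR, adjusted p = 0.042), and 8 of 14 fits that left out a library lost the call, the change being 0.93 without MC903 replicate 1. S100a9 ran from 8.07 cpm over a median of 20.3 to 39.9 cpm and from 15.5 cpm over a median of 37.4 to 122.97 cpm, a change of 1.09 ± 0.41 that was not called (edgeR, adjusted p = 0.096). The groups overlapped for both. The summed neutrophil markers in these cord libraries were 40.2 to 91.2 cpm after ethanol and 52.4 to 275.3 cpm after MC903, against 35.8 to 59.1 cpm and 31.1 to 75.5 cpm in uninjected mice, and their part in the levels was not tested.

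The MC903 effect was smaller in cord than in skin for all 3 genes that the comparison of tissues was made for. In uninjected Day_8 mice the cord effect minus the skin effect was -1.70 ± 0.39 for Lcn2, -3.65 ± 0.89 for S100a8 and -6.27 ± 0.88 for S100a9 on the log2 scale (edgeR, adjusted p = 0.0046, 0.0066 and 4.7e-05). Slpi gave -6.81 ± 0.90 (edgeR, adjusted p = 2.1e-05), and these were the 4 of 9 genes called, where 16.2% of 28575 genes were. Defb3 and Defb4 had 0 counts in all 27 cord libraries and Defb14 at most 1, so 3 counts is the level that could have gone undetected. Slpi in cord stood at 0.117 to 4.20 cpm and S100a7a at 0.556 to 1.36 cpm. The tissues also differ in the site that was treated, which cannot be told apart from the tissue.

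**Figure D3:**
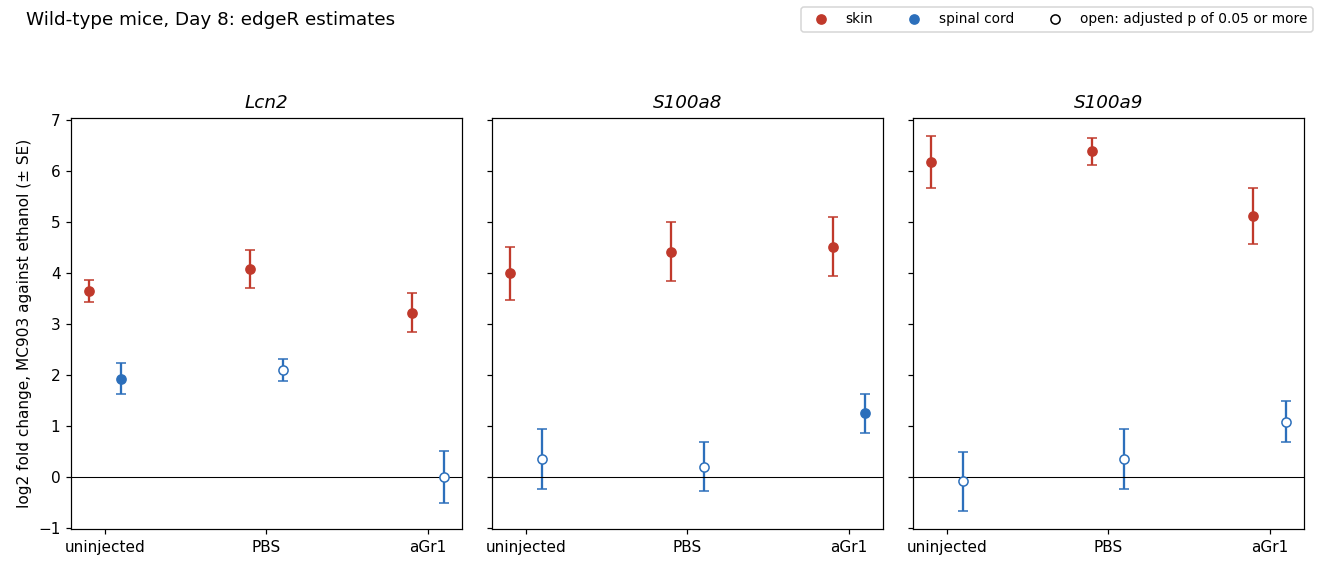
Log2 fold change, MC903 over ethanol, with its standard error (bars), for Lcn2, S100a8 and S100a9 in the skin and spinal cord groups, with filled points where the adjusted p was under 0.05 and open points elsewhere. Without injection, Lcn2 stands at 3.64 in skin and 1.93 in cord and S100a9 at 6.18 and -0.09.

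Camp, scarce in skin, was measured in all cord libraries. In cord it held 0.763, 0.933, 1.05, 3.83 and 4.93 cpm after ethanol and 0.958, 1.54, 1.55 and 3.74 cpm after MC903 in uninjected mice. Over all 27 cord libraries it ran from 0.588 to 21.5 cpm, and over the 61 skin libraries from 0 to 0.783 cpm. Pooled over libraries, cord held 3.19 S100a8 counts for each Camp count after ethanol and 4.26 after MC903, the ganglion 3.25 and 2.93, and skin 47.3 after ethanol and 427 after MC903 from Day_5 on. Cord libraries ran from 1.31 to 6.94 in this ratio, and MC903 skin libraries with more than 3 Camp counts from 28 to 1014. S100a8 in MC903 skin was thus present with few Camp counts, and in cord and ganglion with many.

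**Figure D4:**
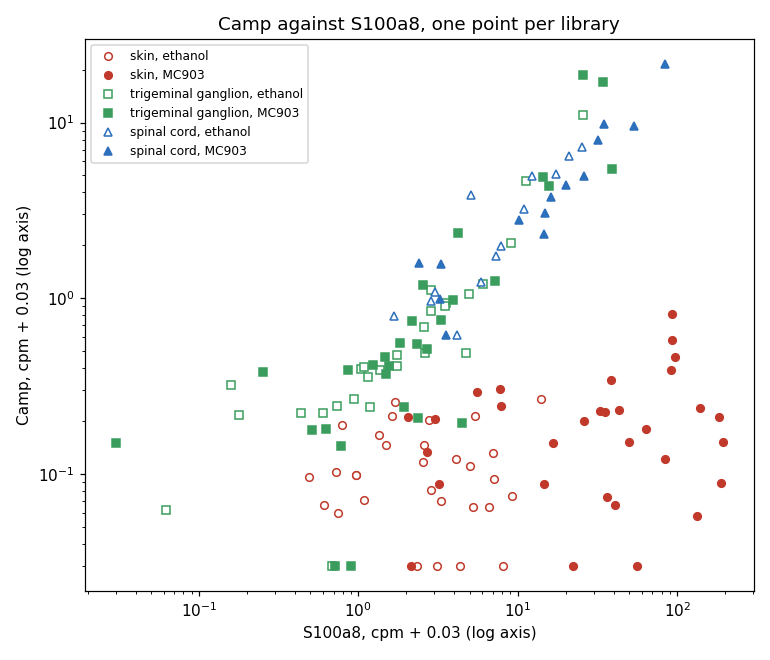
Camp against S100a8, both in cpm on log axes, 1 point per library, by tissue and treatment. Ganglion and cord libraries lie along a band at a few S100a8 counts per Camp count, and MC903 skin libraries lie to the right of it with S100a8 up to 194 cpm and Camp under 1 cpm.

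In the trigeminal ganglion of TSLPR.KO mice on Day_12, where same-numbered libraries deviated together, edgeR with a replicate block called Lcn2. The shares of all genes given in this paragraph are those of edgeR without the block, and none is given for the block or DESeq2. Without the block, edgeR called none of the 9 genes in this tissue except S100a7a in aGr1-injected mice. With the threshold of 0.1 used for this tissue, edgeR called 0 of 6 or 7 genes that passed the count minimum on Day_1 and Day_2 (0% of genes called on each), Day_5 (0.00823%) and Day_8 without injection (0.16%) or with PBS (3.36%), and in TSLPR.KO mice on Day_8 (0%) and Day_12 (0.304%). At an unadjusted p under 0.05 there were 1 on Day_2, 1 with PBS, 4 in TSLPR.KO mice on Day_8 and 3 on Day_12. In these groups DESeq2 called 1, Lcn2 in TSLPR.KO mice on Day_12 (1.44 ± 0.32, adjusted p = 0.0018). In that group, where same-numbered libraries deviated together, Lcn2 was also called with the replicate block (1.48 ± 0.21; edgeR, adjusted p = 0.012), and on Day_5 the block called none of these genes. With aGr1, 4 of 6 genes had an unadjusted p under 0.05 by edgeR, DESeq2 called 1, and the median log2 fold change of the 6 was 1.33. S100a7a in this group held 2.60, 2.84, 2.90 and 3.34 cpm after ethanol and 0.899, 1.01, 1.40 and 1.95 cpm after MC903. All MC903 libraries were below, with a log2 fold change of -1.14 ± 0.24 (edgeR, adjusted p = 0.041), 1 of 6 genes where 1.88% were called, and 3 of 8 fits that left out a library lost the call.

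S100a8, S100a9, Camp and Lcn2 were instead high in single ganglion libraries of either treatment. S100a8 ran from 0 to 39.1 cpm over the 56 libraries. On Day_1 it stood at 25.8 cpm in ethanol replicate 1 and at 34.3 and 15.6 cpm in MC903 replicates 1 and 2, on Day_5 replicate 3 held 11.2 cpm after ethanol and 14.3 cpm after MC903, and in aGr1-injected mice MC903 replicate 1 held 39.1 cpm. S100a9 reached 58.4 cpm, Camp 18.7 cpm and Lcn2 29.7 cpm. The high libraries were thus found in ethanol and MC903 groups alike. The neutrophil marker sum ran from 6.3 to 104.3 cpm over the ganglion libraries, and its part was not tested.

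**Figure D5:**
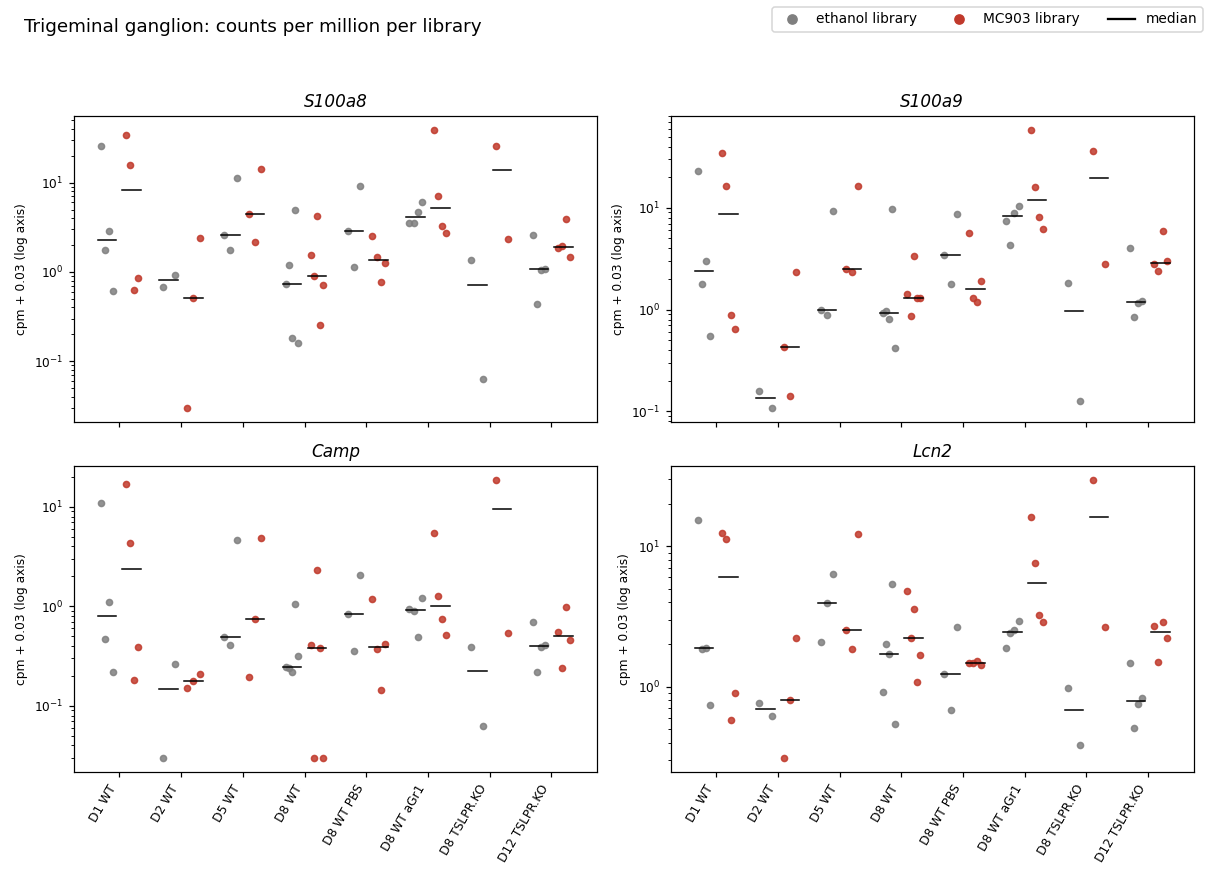
Levels of S100a8, S100a9, Camp and Lcn2 in every trigeminal ganglion library, in cpm on a log axis, by day, genotype and injection, with ethanol in grey, MC903 in red and a line at each median. Single libraries of both treatments stand far above the rest, such as S100a8 at 25.8 cpm after ethanol on Day_1 and at 39.1 cpm after MC903 with aGr1.

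In TSLPR.KO ganglion of Day_8, S100a8 stood at 25.7 cpm in MC903 replicate 1, and the MC903 libraries of 6 genes lay above ethanol where 17.4% of genes did so, with 2 libraries in each group. That replicate stands apart in its read tallies, with 13.2% of reads ambiguous between genes and 19.03% outside genes against 2.32% to 2.40% and 11.8% to 12.6% in the other libraries of this comparison, and it also held the highest Camp and Lcn2 of all ganglion libraries. The other MC903 library had 2.29 cpm of S100a8 and 2.65 cpm of Lcn2, against at most 1.34 and 0.945 cpm after ethanol, and edgeR called 0 of the 9 genes without replicate 1 and 4 without the other. Defb3 had 0 counts in all 56 ganglion libraries, Defb4 at most 3, and Defb14 passed 3 counts in 8 libraries. The highest Defb14 level, 1.12 cpm, was in Day_5 ethanol replicate 1, the library with the highest keratinocyte marker sum of its group (346.8 cpm, in a group range of 73.1 to 346.8 cpm). The highest keratinocyte marker sum of all ganglion libraries, 395.8 cpm, was in another group. Defb14 was at 0 in the PBS- and aGr1-injected ganglia, where that sum was 2.89 to 4.69 cpm. It was also at 0 in the TSLPR.KO ganglia of Day_8 and Day_12, whose sums are not given here. The part of skin cells in these ganglion values was not tested.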

How the data were processed

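Per the labels and the study's methods, the authors sequenced poly(A) RNA as single-end reads, aligned them to mm10 (Bowtie2, TopHat) and counted them per gene by htseq-count. The deposited values are these raw counts, listed by Ensembl identifier and not normalized. Annotation release and strand setting are not given in the sources used here, so reads of overlapping and near-identical genes, defensins included, may be split. Symbols came from GENCODE M21 (GRCm38), which matched 45143 of 46078 genes, and the 5 tally lines of each list were left out.

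The 9 genes and all gene lists were chosen with earlier results of these data known. Each of 20 MC903 comparisons and 5 interactions was fitted on its own libraries with the quasi-likelihood functions glmQLFit and glmQLFTest of edgeR 4.0.16 under R 4.3.3 (TMM, genes with at least 10 counts in total, Benjamini-Hochberg adjustment over all genes tested, a cohort term for uninjected wild-type Day_8 skin and ganglion), with thresholds of 0.05 in skin and cord and 0.1 in ganglion. Scripts were tested on simulated counts. The alternatives were DESeq2 1.42.0, other scaling and filters, a replicate block, other reference groups and leaving out each library. Shares of all genes called are those of the main edgeR fits only. Named genes of other lists were taken from the 4 of each list with the smallest p in uninjected wild-type Day_8 skin, and for likeness the 3 genes with the highest correlation over skin group means of log2(cpm + 0.5); Krt6a and single neutrophil markers were named after their values were seen. Pairwise comparison of libraries found no identical files. Depth ran from 17431296 to 67342879 counts in skin, 15931871 to 62105901 in ganglion and 21595429 to 50591655 in cord. Intervals and the floor of 3 counts cover counting error only. Replicate numbers were treated as pairs in groups where every same-numbered pair's deviations correlated above 0.1. These were ganglion on Day_5 (3 pairs, 0.157 to 0.363) and TSLPR.KO ganglion on Day_12 (4 pairs, 0.234 to 0.628). Day_2 skin, with only 2 pairs, also passed this value (0.176 and 0.233) but was not treated as paired.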

Additional observations from a re-analysis of the deposited data

Results flagged for a closer look

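Of the groups of 4 to 10 libraries with enough counts, 25, or 19.1%, held 1 library far from the others by Dixon's criterion. Its nominal rate of about 1 of 20 groups holds for independent, normally distributed values. Here the criterion was applied to cpm, every flagged library was the highest of its group, and some libraries were flagged in several genes. The share therefore cannot be set against that rate. In skin, S100a8, S100a9 and Defb14 of TSLPR.KO MC903 replicate 3 on Day_12 stood at 91.4, 106 and 39.4 cpm (nearest other 42.96, 37.8 and 17.6). Day_1 S100a9 stood at 1.43 cpm in ethanol replicate 4 (0.414) and 2.36 cpm in MC903 replicate 2 (0.262), and Slpi at 365 cpm in 1 cohort A MC903 library of Day_8 (123.8).

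In the ganglion, Day_1 ethanol replicate 1 stood alone in S100a8 (25.8 cpm), S100a9 (23.2), Camp (10.9) and Lcn2 (15.4), and Day_1 MC903 replicate 1 in S100a7a (9.69). On Day_8 without injection, cohort B ethanol replicate 2 did so in S100a8 (4.92 cpm), S100a9 (9.79) and Camp (1.03), and cohort B MC903 replicate 1 in S100a9 (3.34) and Camp (2.31). MC903 replicate 1 stood alone in S100a9 with PBS (5.57 cpm) and in S100a8 and Camp with aGr1 (39.1 and 5.43). In TSLPR.KO ganglion on Day_12, S100a9 reached 4.03 cpm in ethanol replicate 1 and 5.91 cpm in MC903 replicate 3.

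In spinal cord, uninjected MC903 replicate 3 stood alone in S100a8 (16.2 cpm), uninjected ethanol replicate 4 in Slpi (4.20), and aGr1-injected MC903 replicate 1 in S100a9 (122.97 cpm, nearest other 55.7) and Camp (21.5, nearest other 9.72).

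The MC903 effect differed between groups by edgeR's interaction test in 7 cases. On the log2 scale these were Defb4 with aGr1 against uninjected skin (3.47), S100a7a (3.88) and Lcn2 (-1.46) in BLT1.KO against wild-type skin, and Lcn2 (-1.70), S100a8 (-3.65), S100a9 (-6.27) and Slpi (-6.81) in cord against skin.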

How the results depend on the processing

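Over 101 fold changes of single genes, 1498 alternative values kept direction and side of the threshold, 66 lost the call, 34 gained it and 23 changed sign. The number of the 9 genes called moved as follows. On Day_1 in skin it was 1, 2 by DESeq2, 0 by library totals alone and 0 with the replicate block, and on Day_2 it was 0, 2 by DESeq2 and 3 with the block. In ganglion it went from 0 to 1 with PBS (no filter, block), from 1 to 3 with aGr1 (no filter), from 0 to 4 in TSLPR.KO on Day_8 (no filter, block) and from 0 to 1 on Day_12 (DESeq2, no filter, block). In PBS-injected cord it went from 0 to 1 (DESeq2, no filter, block), with 1 also when the 2 pairs, whose deviations correlated at -0.43, were crossed. In aGr1-injected cord it went from 1 to 0 with the block. Of the differences between groups, that for aGr1 went from 1 to 0 against PBS-injected mice, that for TSLPR.KO from 0 to 2 by DESeq2 and that for BLT1.KO from 2 to 1 with cohort B alone. The block changed no other count by over 1.5 times. Outside the 2 groups treated as paired, and Day_2 skin with its 2 correlated pairs, replicates share only a number. Library totals and the crossed pairs were chosen after seeing the data.

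Leaving out 1 library at a time gave 0 to 1 called genes on Day_1 and Day_2, 6 to 7 on Day_5, 7 to 8 on Day_8, 4 to 7 with PBS, 7 to 8 with aGr1, 2 to 6 in TSLPR.KO, 7 to 8 in BLT1.KO and 6 to 7 on Day_12 in skin. In ganglion it gave 0 to 1 with PBS, 0 to 2 with aGr1, 0 to 4 in TSLPR.KO on Day_8 and 0 to 1 on Day_12, and in cord 1 to 4 with PBS and 0 to 1 with aGr1. For the differences it gave 0 to 1 (TSLPR.KO), 1 to 2 (BLT1.KO) and 4 to 5 (cord against skin).

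Changes of sign were S100a9 on Day_2 (-0.10 with the block, -0.0073 to 1.84 leaving out a library), Camp in TSLPR.KO skin (-0.072 with the block), Lcn2 in aGr1-injected cord (0.00 as reported, -0.0025 without a filter, -0.0084 by library totals, -0.34 to 0.69 leaving out a library), and Defb4 in the aGr1 difference against PBS (-0.48) and in the BLT1.KO difference with cohort B (0.28). Leaving out a library also turned S100a8 and S100a9 in uninjected cord (-0.72 to 1.0 and -1.07 to 0.36) and PBS-injected cord (-0.68 to 0.76 and -1.01 to 1.06), and S100a8 in the TSLPR.KO difference (-2.11 to 0.53). The cause was not tested. Library totals in place of TMM shifted the median of all genes to 0.34 with aGr1, 0.16 in TSLPR.KO on Day_12 and 0.15 on Day_2 in skin, and to 0.37 in the aGr1 difference. Depth limits Camp in skin, Defb3 and Defb4 in cord and ganglion, and Defb14 in cord.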
